A study of Mus musculus with 12 samples.

Results

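The Zfp genes expressed in G1ME cells were 150 of the 305 genes whose mouse symbol is Zfp followed by a number and that have a probe set annotated with that single symbol, which is 49.2% of them. A probe set is the group of oligonucleotides that measures a transcript on the array, and its intensity is a brightness on a linear scale. Of the 575 such probe sets, the brightest of each gene over the 12 arrays was used, and a gene was kept where its mean intensity reached 100 in at least 1 of the 4 groups. Another 27 probe sets whose annotation joins a Zfp symbol to other genes were left out. The genes were thus chosen by their intensity on the same arrays that are compared below, so levels are given as a description.

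Most Zfp genes encode proteins with arrays of classical zinc fingers, small folds in which cysteines and histidines hold a zinc ion and which grip DNA, or in some members RNA. Many carry a KRAB domain at the amino end, which recruits TRIM28 (KAP1) and, through it, the histone methyltransferase SETDB1 and other silencing factors, and are best known for repressing retroelements. GATA1 is the zinc finger factor that drives erythroid and megakaryocytic maturation, and it belongs to a different finger family.

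G1ME is an immortal mouse progenitor line of the megakaryocyte and erythrocyte lineages that lacks Gata1. Cells were transduced with the MIGR1-GFP control vector or with a construct that expresses GATA1, GFP-positive cells were sorted 18 h or 42 h later, and total RNA was hybridised to arrays of 45101 probe sets. Each of the 4 groups had 3 biological replicates lettered A, B and C, so the groups were vector and GATA1 cells at 18 h and vector and GATA1 cells at 42 h, all of them Gata1-negative, transduced and sorted. The data come from a single line in culture, and nothing in the labels says how far GATA1 was expressed above a physiological level.

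Array medians were alike, between 8.05 and 8.29, and the median intensity of the 150 Zfp genes lay between 245 and 305 on the 12 arrays. The actin 3′/5′ signal ratio, a sign of RNA integrity, was 0.38 to 0.55 on the log2 scale on 11 arrays and 0.80 on replicate A of GATA1 cells at 42 h. The Gata1 probe set read 3137 ± 116 (SD, n = 3) in vector and 2044 ± 355 in GATA1 cells at 42 h, so it was bright in a line described as Gata1-negative and lower where GATA1 was introduced. It therefore does not check the labels, which part of the transcript it covers was not examined, and the groups below are those labelled vector and GATA1. Of the 4 erythroid markers on the array, 3 passed as higher in GATA1 cells at 18 h and all 4 at 42 h. The other, Alas2, read 3.22 in vector and 3.20 in GATA1 cells at 18 h. The summed intensity of the 4 was 237 to 506 in vector and 2761 to 3748 in GATA1 cells at 18 h. At 42 h the sum was 280 to 368 in vector and 15266 to 23885 in GATA1 cells, where Hbb-y alone had a mean of 13812. Of 4 progenitor markers 3 fell at 42 h, among them Kit and Gata2, and of the mast cell markers only Cpa3 was measured above an intensity of 16 and fell by 4.94 on the log2 scale, while the other 3 stayed below 16 in all groups. Of 4 megakaryocyte markers 2 rose and 1 fell at 42 h. The summed intensity of the 4 was 14257 to 14820 in vector and 21802 to 25599 in GATA1 cells at 42 h. Pf4 alone had means of 8111 and 17656. Gp9 fell from 2905 to 2232, and Itga2b, which is also on the progenitor list, read 3539 and 2826 without passing. Of the 4 neutrophil and macrophage markers on the array, Mpo fell by 2.67 on the log2 scale at 42 h. Csf1r read 20.2 in vector and 20.4 in GATA1 cells at 42 h and did not pass, and Elane and Adgre1 stayed below 16 in all groups. All 3 lymphocyte and all 5 stromal markers measured were below 16 in all groups. In bulk RNA, fewer cells of a type and less RNA per cell cannot be told apart, and the part of these shifts in cell state in the Zfp changes was not tested.

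The 150 genes had mean intensities from 74.7 to 5850 over all arrays, with a median of 282, and 134 of them reached 100 in every group. The brightest probe sets were those of Zfp207 at 5850, Zfp106 at 2828, Zfp445 at 2374, Zfp622 at 2074, Zfp330 at 1513 and Zfp277 at 1322. Brightness depends on the probes as well as on the transcript, so the order of different genes is not an order of their expression. The median coefficient of variation of a gene between replicates was 10.9% to 12.9% in the 4 groups. At the threshold itself, the highest group mean was 101 for Zfp1, 110.5 for Zfp579 and 115 for Zfp946 just inside, and 98.0 for Zfp318, 97.3 for Zfp959 and 96.0 for Zfp113 just outside. Of the 16 genes that were below 100 in at least 1 group, 4 reached it in a single group: Zfp1 and Zfp946 in vector cells at 42 h and Zfp81 and Zfp229 in GATA1 cells at 42 h. Zfp473, Zfp521, Zfp60 and Zfp935 reached it in both vector groups and in no GATA1 group, and Zfp788 in both GATA1 groups and in no vector group. These 9 genes entered through the cells in which they are high, so their differences below are in part fixed by the choice. That holds for 7 of the 23 genes that pass at 42 h: Zfp1, Zfp81, Zfp229, Zfp473, Zfp521, Zfp788 and Zfp946.

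At 42 h the Zfp genes that changed with GATA1 were nearly as often higher as lower, and most Zfp genes did not pass the test. Of the 150 genes, 23 passed the test, which is 15.3%, against 20.9% of all 10759 genes tested. Here the test is limma's moderated test on log2(intensity + 16) in a fit over all 12 arrays, and passing means a Benjamini-Hochberg adjusted p under 0.05 over all genes tested. Of the 150, 11 passed as higher in GATA1 cells, 7.33%, against 10.3% of all genes tested. Another 12 passed as lower, 8%, against 10.6% of all genes tested. The median difference of the Zfp genes was -0.0038 on the log2 scale and that of all genes tested 0.0011. Without regard to sign the median size was 0.18 for Zfp genes and 0.15 for all genes tested. It was 0.19 for the 7765 genes that meet the same level rule. Zfp genes ran from -1.25 to 1.14, while all genes ran from -4.94 to 7.88. Only 5 Zfp genes, 3.33%, changed at least 2-fold among those that passed, against 4.96% of all genes tested. Among the 7765 genes of the array that meet the same level rule, 25.1% passed at 42 h.

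**Figure D1:**
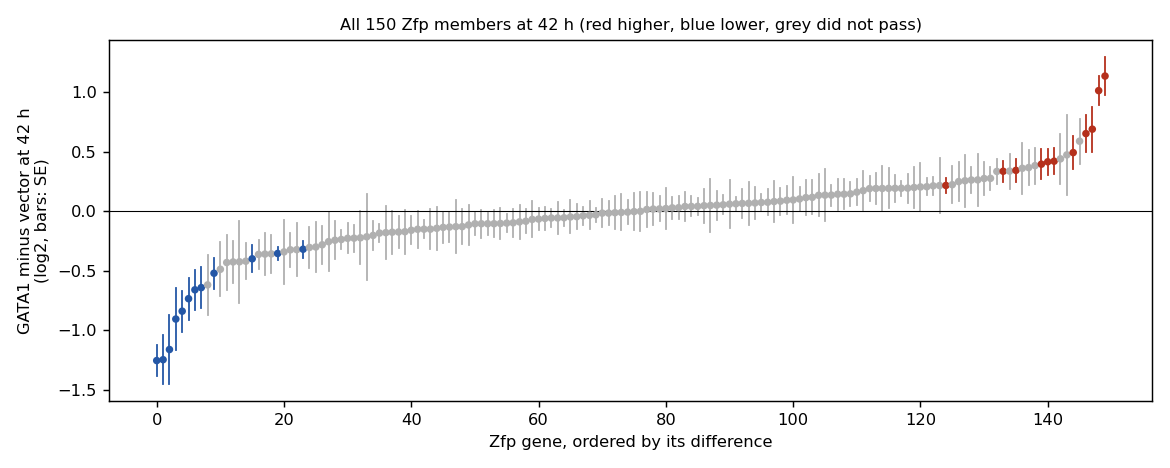
Difference between GATA1 and vector cells at 42 h, on the log2(intensity + 16) scale with its standard error, for each of the 150 Zfp genes in order of size. The 11 red points passed as higher and the 12 blue points as lower, the grey points did not pass, and the bulk of the genes lies within 0.25 of zero.

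The largest fall was that of Zfp521, a protein of many fingers known from blood stem and progenitor cells, which binds the NuRD repressor complex through its amino end. Its intensities in replicates A, B and C were 127, 113 and 110.0 in vector and 79.2, 81.0 and 71.5 in GATA1 cells at 18 h, and 152, 113 and 103 in vector and 49.8, 34.8 and 41.3 in GATA1 cells at 42 h. GATA1 cells were below every vector array at each time, and lowest at 42 h, though the 18 h difference did not pass (limma adjusted p 0.117). Zfp521 met the level rule in vector cells only, so its direction is in part fixed by that rule. The difference at 42 h was -1.25 ± 0.13 (SE, log2), a 2.38-fold fall with a limma adjusted p of 1.35e-04.

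Zfp275 lies on the X chromosome. It read 280.4, 240.1 and 207 in vector and 142, 135 and 96.1 in GATA1 cells at 18 h, and 385, 242 and 316 in vector and 153, 109 and 107 in GATA1 cells at 42 h. Its arrays also separated at both times, with a difference at 42 h of -1.25 ± 0.20 (SE, log2), 2.37-fold lower, and a limma adjusted p of 0.00202. GATA1 cells read 125 ± 24.9 (SD, n = 3) at 18 h and 123 ± 26.3 at 42 h, so their level was alike at the 2 times. The difference from vector at 18 h did not pass (limma adjusted p 0.0730). Zfp704 behaved otherwise in time. It read 339, 255 and 231 in vector and 289.8, 246 and 189 in GATA1 cells at 18 h, where the groups overlapped, and 433, 223 and 190.4 in vector and 139, 105 and 90.2 in GATA1 cells at 42 h, where they did not. The 42 h difference of Zfp704 was -1.16 ± 0.29 (SE, log2), 2.23-fold lower with a limma adjusted p of 0.0195. Its replicate A was the highest in each of the 4 groups.

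Zfp948 and Zfp317, both of the KRAB type, were the largest rises. Zfp948 read 183, 141 and 143 in vector and 195, 204 and 154 in GATA1 cells at 18 h, and 149.7, 144 and 189 in vector and 459, 334 and 332 in GATA1 cells at 42 h. Only GATA1 cells at 42 h stood apart, by 1.14 ± 0.16 (SE, log2), 2.20-fold higher with a limma adjusted p of 9.06e-04. Zfp317 read 108, 119.7 and 125 in vector and 114, 159 and 146 in GATA1 cells at 18 h, and 97.5, 99.2 and 124 in vector and 249.6, 207 and 238 in GATA1 cells at 42 h. The groups overlapped at 18 h and were separate at 42 h, where the difference was 1.01 ± 0.12 (SE, log2), 2.02-fold higher with a limma adjusted p of 3.55e-04.

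**Figure D2:**
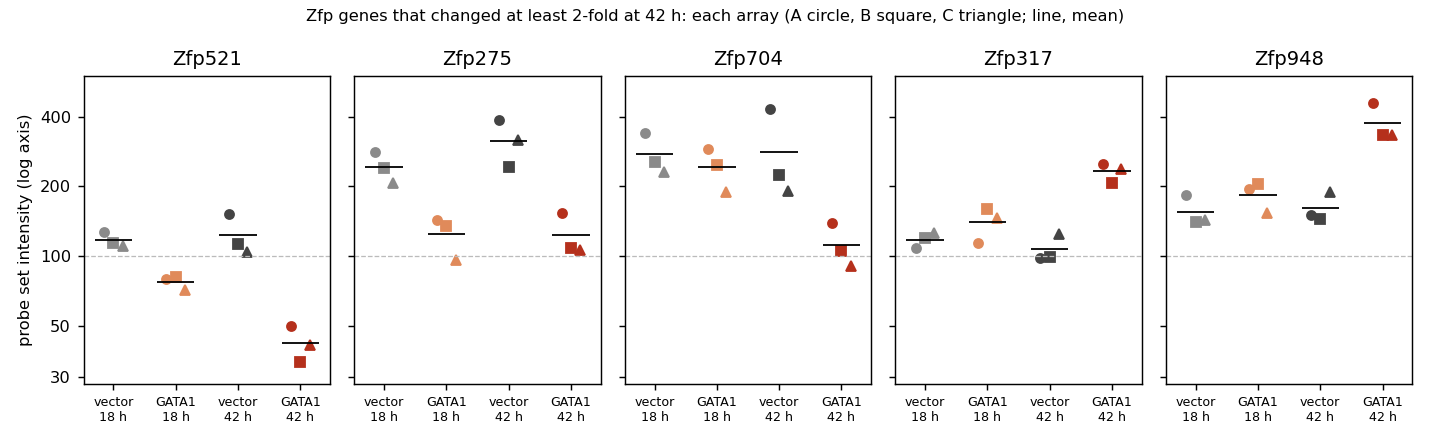
Probe set intensity (log axis) of the 5 Zfp genes that passed the test and changed at least 2-fold at 42 h, with each array as a point (A circle, B square, C triangle) and the group mean as a line, and the level of 100 dashed. The 3 arrays of GATA1 cells at 42 h are below all other arrays for Zfp521 and Zfp704 and above all others for Zfp317 and Zfp948, while GATA1 cells of both times lie at a like level for Zfp275.

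The stretches before the start sites of 3 of these genes are shown because GATA1 is known to bind the letters AGATAA and TGATAA. Both were searched on each strand in the 250 bases before the start in the RefSeq promoter table of build GRCm38.p6. Sequences run 5′ to 3′ in the direction of the gene, capitals mark a match, and a match is only a description of letters. Zfp553, with the other match among the rises, is shown beside them.
Zfp317, chr9:19621841-19622090, plus strand: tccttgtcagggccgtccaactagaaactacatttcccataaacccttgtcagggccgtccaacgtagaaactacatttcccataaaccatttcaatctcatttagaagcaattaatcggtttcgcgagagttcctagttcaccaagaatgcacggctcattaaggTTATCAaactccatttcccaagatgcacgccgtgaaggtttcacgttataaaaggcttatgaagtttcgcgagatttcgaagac
Zfp948, chr17:21566728-21566977, plus strand: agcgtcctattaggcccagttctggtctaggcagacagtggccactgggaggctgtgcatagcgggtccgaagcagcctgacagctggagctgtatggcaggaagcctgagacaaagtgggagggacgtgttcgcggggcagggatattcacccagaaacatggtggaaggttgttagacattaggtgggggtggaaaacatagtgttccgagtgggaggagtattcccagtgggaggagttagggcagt
Zfp275, chrX:73342370-73342619, plus strand: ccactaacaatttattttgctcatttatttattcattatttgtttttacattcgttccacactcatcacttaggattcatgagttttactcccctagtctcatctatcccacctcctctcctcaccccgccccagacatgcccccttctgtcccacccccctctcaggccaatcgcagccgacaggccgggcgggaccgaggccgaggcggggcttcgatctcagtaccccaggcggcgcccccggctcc
Zfp553, chr7:127232811-127233060, plus strand: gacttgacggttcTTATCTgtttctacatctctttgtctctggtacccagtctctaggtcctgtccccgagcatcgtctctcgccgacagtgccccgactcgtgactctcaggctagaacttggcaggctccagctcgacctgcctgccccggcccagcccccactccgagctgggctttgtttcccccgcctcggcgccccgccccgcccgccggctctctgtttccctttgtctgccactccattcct

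In Zfp317 the letters TTATCA, the other strand's TGATAA, lay 84 to 79 bases before the start, and in Zfp553 the letters TTATCT, the other strand's AGATAA, lay 237 to 232 bases before it. No match was in the windows of Zfp948 and Zfp275. Over the members with an entry, 15 of 126 had a match, 11.9%, against 18.8% of all 27025 genes in the table. By direction at 42 h, 2 of 11 genes that rose, 0 of 9 that fell and 13 of 106 that did not pass held the letters. These counts say nothing of where GATA1 binds.

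The other 9 falls at 42 h were smaller. Zfp946 read 160.4, 86.6 and 96.6 in vector and 51.2, 49.4 and 54.8 in GATA1 cells (-0.90 ± 0.26, limma adjusted p 0.0370). Zfp473, which binds the U7 small nuclear ribonucleoprotein and takes part in histone mRNA processing, read 137, 136 and 158 against 70.4, 65.8 and 84.1 (-0.84 ± 0.17, adjusted p 0.00726). For Zfp608, a relative of Zfp609, the intensities were 202, 162 and 142 against 117, 100.3 and 70.1 (-0.73 ± 0.18, adjusted p 0.0158). In all 3 the GATA1 arrays were below every vector array, though vector replicate A of Zfp946 was far above replicates B and C. Zfp1 read 129.9, 101 and 71.8 against 57.1, 51.4 and 61.5 (-0.66 ± 0.17, adjusted p 0.0212), and Zfp386 read 376, 447 and 479 against 265, 275 and 274 (-0.64 ± 0.17, adjusted p 0.0249). Zfp579 read 122, 107 and 92.8 against 56.3, 80.5 and 74.1 (-0.52 ± 0.13, adjusted p 0.0190). The GATA1 arrays of these genes were again below all vector arrays. The remaining falls were under 1.5-fold. They were Zfp799 (344, 278 and 324 against 238, 262 and 207, -0.40 on the log2 scale, adjusted p 0.0344), Zfp319 (123, 116 and 134 against 98.1, 90.0 and 92.9, -0.35, adjusted p 9.29e-04) and Zfp560 (919.7, 856 and 985 against 702, 777 and 725, -0.32, adjusted p 0.0107). Zfp319 shows how small a fall could pass where replicates were close, as its 3 GATA1 arrays lay between 90.0 and 98.1.

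The other 9 rises at 42 h were also modest. Zfp229 read 75.9, 51.0 and 79.0 in vector and 129, 109.6 and 119 in GATA1 cells (0.69 ± 0.19, limma adjusted p 0.0280). Zfp667, a KRAB repressor, read 108, 72.8 and 88.4 against 147, 155 and 145 (0.65 ± 0.16, adjusted p 0.0148), and Zfp81 read 89.4, 73.7 and 95.4 against 139, 129 and 114 (0.49 ± 0.14, adjusted p 0.0335). In these 3 the GATA1 arrays all exceeded 100 while vector arrays, apart from replicate A of Zfp667, did not. Zfp553 read 175, 197 and 214 against 287, 233 and 281 (0.42 on the log2 scale, adjusted p 0.0228), and Zfp788 read 94.3, 88.6 and 86.9 against 146, 111 and 121 (0.42, adjusted p 0.0249). Zfp763 read 138, 117 and 148 against 207, 163 and 176 (0.40, adjusted p 0.0497), just inside the threshold, and its adjusted p was 0.0561 with the replicate letter as a block. The other rises were smaller still. Zfp131, which pairs its fingers with a BTB domain, read 1024, 1117 and 1082 against 1448, 1428 and 1237 (0.34, adjusted p 0.0354). Zfp770 read 732, 596 and 778 against 890.1, 854 and 915 (0.34, adjusted p 0.0253), and Zfp639 read 613, 558 and 631 against 686, 707 and 708 (0.22, adjusted p 0.0374). All 23 genes that passed had arrays that did not overlap between the groups at 42 h, as did 99.4% of all genes that passed. Over all 150 Zfp genes the arrays of 40 did not overlap, 26.7%, against 33.4% of all genes tested. Of the 23, 11 changed by less than 1.5-fold. An unadjusted p under 0.05 at 42 h was found for 40 of the 150, against 31.7% of all genes tested, so that 17 had one without passing, and 97 of those that did not pass lay within 0.25 log2 units of no difference.

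How firm these calls are differed between genes. Leaving out any single array of the 12, 7 genes passed each time: Zfp275, Zfp317, Zfp319, Zfp473, Zfp521, Zfp560 and Zfp948. The other 16 lost the call without at least 1 array, and the number of Zfp genes that passed ranged from 12 to 26. It was 15, 12 and 22 without vector 42 h replicate A, B or C, and 12, 13 and 15 without GATA1 42 h replicate A, B or C. Of the 23, the calls lost in these 6 cases were 10, 11, 5, 13, 11 and 9, with adjusted p from 0.0501 to 0.161, and leaving out an 18 h array lost 1 to 4. Zfp704 failed without GATA1 42 h replicate B or C. Zfp946 failed without vector 18 h replicate C, vector 42 h replicate A or C, or any GATA1 array at 42 h. Without the GATA1 42 h replicate A, whose actin ratio stood apart, the 12 genes were 4 higher and 8 lower. The share of all genes that passed with a single array left out is not given here, so these losses cannot be set beside those of other genes. With a level rule that does not look at groups, a mean of 100 over all 12 arrays, 17 of 144 Zfp genes passed, 9 higher and 8 lower. That is 11.8%, against 20.9% of all genes tested.

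Of the 150 Zfp genes, 86 had more than 1 probe set, and for 75 a second brightest one could be tested, in a fit of its own over 5087 genes. Of the 23 genes that passed at 42 h, 11 were among them. In 3 the second probe set passed in the same direction: Zfp704 with -1.19 ± 0.26 (SE, log2, limma adjusted p 0.0145), Zfp608 with -0.65 ± 0.15 (adjusted p 0.0173) and Zfp386 with -0.62 ± 0.12 (adjusted p 0.00825). The sizes for these 3 were close to those of the brightest probe sets. For Zfp521 the second probe set read 9.74 in vector and 7.02 in GATA1 cells at 42 h, and for Zfp948 it read 8.07 and 8.63, so both were near the array median and showed differences of -0.15 ± 0.11 (adjusted p 0.466) and 0.03 ± 0.04 (adjusted p 0.665). Second probe sets well above the array median failed too. At 42 h that of Zfp770 read 79.8 in vector and 77.5 in GATA1 cells (0.0027 ± 0.33, limma adjusted p 0.998). That of Zfp553 read 47.8 and 53.8 (0.13 ± 0.20, adjusted p 0.762). Those of Zfp81, Zfp319 and Zfp763 kept the sign without passing. Zfp560 was the single gene among the 11 whose second probe set had the opposite sign, at 0.05 ± 0.16 (adjusted p 0.931). Zfp275 and Zfp317 have no second probe set that could be tested. In another 3 genes the second probe set passed where the brightest did not: Zfp511 with 0.29 ± 0.06 (adjusted p 0.0172), Zfp830 with 0.35 ± 0.09 (adjusted p 0.0362) and Zfp800 with 0.53 ± 0.14 (adjusted p 0.0375). The brightest probe set of Zfp800 pointed the other way, at -0.42 ± 0.34, without passing (adjusted p 0.475), though it passed as lower with the replicate letter as a block (adjusted p 0.0200).

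**Figure D3:**
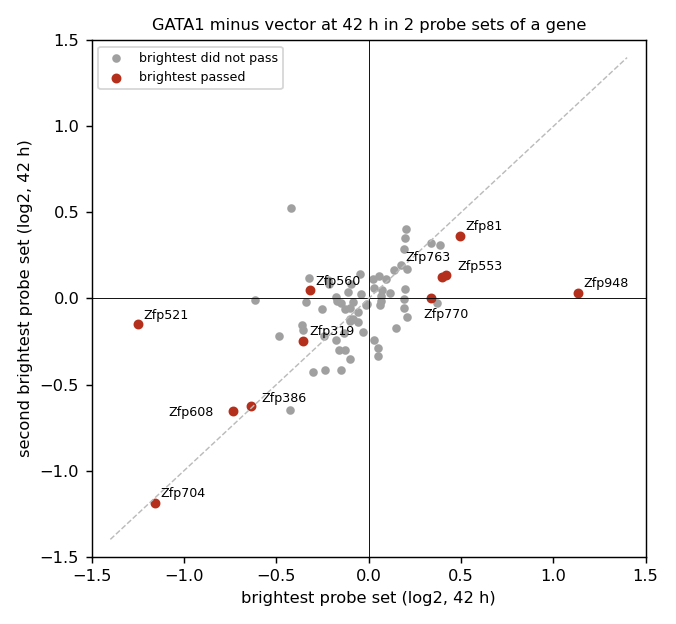
Difference between GATA1 and vector cells at 42 h on the log2 scale in the brightest (horizontal) and second brightest (vertical) probe set of the 75 Zfp genes that had both, with equality dashed and genes whose brightest probe set passed in red. Zfp704, Zfp608 and Zfp386 lie near the dashed line, while Zfp521 and Zfp948 lie far from it, near zero on the vertical axis.

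At 18 h no Zfp gene passed, 0 of 150, against 1.85% of all genes tested. With limma, 10 of the 150 had an unadjusted p under 0.05 at 18 h, against 9.82% of all genes tested. The arrays of 19 of the 150 did not overlap between the groups at 18 h, 12.7%, against 15.4% of all genes tested. The smallest adjusted p values were 0.0730 for Zfp275, with a difference of -0.89 ± 0.20 (SE, log2), and 0.117 for Zfp521, with -0.51 ± 0.13. Replicates of the same letter deviated together between vector and GATA1 cells at 18 h, and with the letter as a block both passed, Zfp275 with an adjusted p of 0.0122 and Zfp521 with 0.0275, and no other Zfp gene did. Of the 23 genes that passed at 42 h, 22 had the same sign at 18 h and all 23 had the larger difference at 42 h. No array is shared between the times, but the times are not independent. Replicates of the same letter deviated together across them, with correlations of 0.36 to 0.54 in vector and 0.05 to 0.61 in GATA1 cells. These genes were picked by their 42 h difference, so the larger size at 42 h is in part fixed by that choice. Zfp473, Zfp521 and Zfp788 met the level rule in 1 construct at both times, so their sign at 18 h is in part fixed too. How often all genes that passed at 42 h kept their sign is not given here. Zfp579 was the exception in sign, with 0.02 ± 0.13 at 18 h. Zfp553 (0.37 at 18 h and 0.42 at 42 h) and Zfp763 (0.40 and 0.40) had nearly the same difference at each time.

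**Figure D4:**
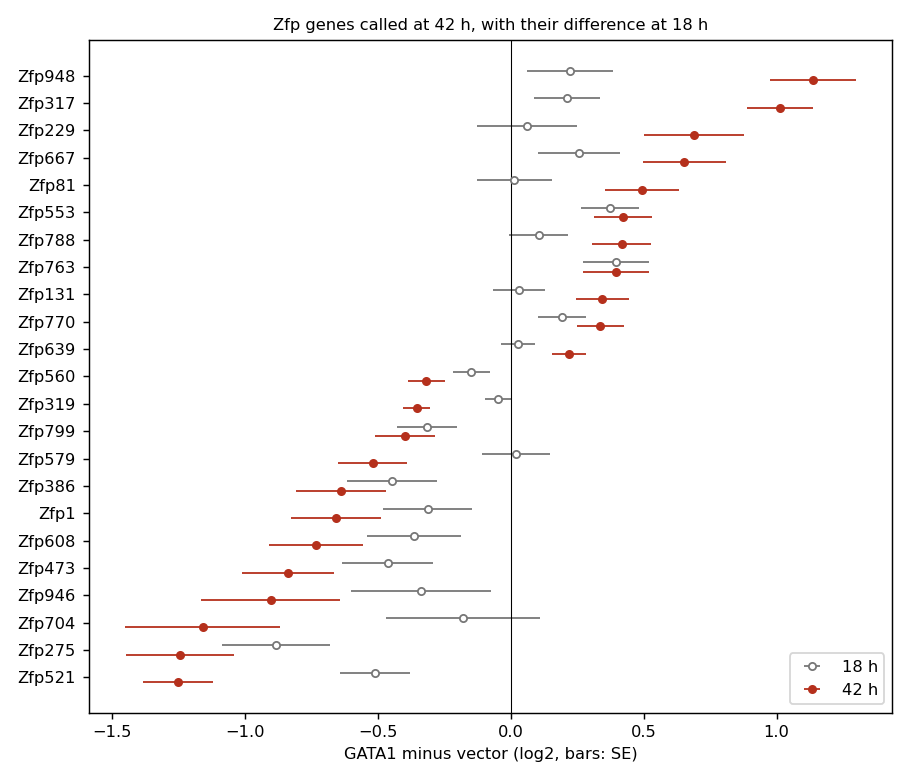
Difference between GATA1 and vector cells at 18 h (open) and 42 h (filled) on the log2 scale with standard errors, for the 23 Zfp genes that passed the test at 42 h. The filled points lie farther from zero in all 23, and Zfp275 and Zfp521 already stand lowest at 18 h.

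A test of the change in the GATA1 effect from 18 h to 42 h passed for 2 of the 150 Zfp genes, 1.33%, against 4.66% of all genes tested, and 13 had an unadjusted p under 0.05, against 16% of all genes tested. For Zfp317 the effect rose from 0.21 to 1.01, a difference of 0.80 ± 0.18 (SE, log2, limma adjusted p 0.0342). For Zfp319 it went from -0.05 to -0.35, a difference of -0.31 ± 0.07 (adjusted p 0.0450). Zfp948, with a difference of 0.91 ± 0.23 (adjusted p 0.0586), and Zfp521, with -0.74 ± 0.19 (adjusted p 0.0575), did not pass, and Zfp704 with -0.98 ± 0.41 did not either (adjusted p 0.281). When the replicate letter entered as a block, 5 genes passed, 3.33% against 7.86% of all genes tested: all 3 of these, with adjusted p of 0.0138 for Zfp521, 0.0183 for Zfp704 and 0.0458 for Zfp948, and again Zfp317 (0.0246) and Zfp319 (0.0393). With single arrays left out, 0 to 3 Zfp genes passed. Zfp317 failed without vector 18 h replicate B or C, GATA1 18 h replicate C, vector 42 h replicate A or B, or GATA1 42 h replicate A or C, and Zfp319 passed only without vector 42 h replicate B or GATA1 42 h replicate A.

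In vector cells from 18 h to 42 h no Zfp gene passed, 0 of 150, against 0.0186% of all genes tested, and 4 had an unadjusted p under 0.05 by limma, against 6.28% of all genes tested. The smallest adjusted p was 0.520, for Zfp523. With the replicate letter as a block, 1 passed, Zfp800, which read 293, 381 and 231 at 18 h and 599, 729 and 330.0 at 42 h (0.80 on the log2 scale, limma adjusted p 0.0311). Its vector arrays overlapped between the times but rose within each letter.

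In GATA1 cells 15 of the 150 Zfp genes passed between 18 h and 42 h, 10%, against 14.6% of all genes tested. Of these, 7 were higher at 42 h, 4.67% of the 150, against 6.72% of all genes tested. The other 8 were lower, 5.33% of the 150, against 7.91%. This comparison shares the GATA1 arrays at 42 h with the comparison above. The largest rises were Zfp948, from 184 ± 26.9 to 375 ± 72.5 (SD, n = 3; 0.96 on the log2 scale, limma adjusted p 0.00407), and Zfp317, from 139.5 ± 23.2 to 232 ± 21.8 (0.68, adjusted p 0.00619). Zfp511 (183 ± 2.22 to 257 ± 48.5, adjusted p 0.0494), Zfp131 (1058 ± 68.0 to 1371 ± 117, adjusted p 0.0355) and Zfp770 (706 ± 34.9 to 886 ± 30.6, adjusted p 0.0405) rose by less. The largest falls were Zfp704, from 241 ± 50.8 to 111 ± 25.2 (-1.01, adjusted p 0.0462), and Zfp521, from 77.2 ± 5.06 to 42.0 ± 7.52 (-0.69, adjusted p 0.00728). Zfp579 (110.5 ± 12.5 to 70.3 ± 12.6, adjusted p 0.0189), Zfp592 (415 ± 57.8 to 296 ± 40.1, adjusted p 0.0294) and Zfp84 (310.2 ± 29.6 to 225 ± 29.2, adjusted p 0.0425) followed. Of the 15, 5 passed without any single array, Zfp317, Zfp319, Zfp521, Zfp639 and Zfp948, and between 5 and 16 Zfp genes passed when an array was left out. The count was 9, 5 and 7 without GATA1 18 h replicate A, B or C, 7 without GATA1 42 h replicate B or C, and 10 without vector 18 h replicate B.

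Zfp genes with a known role were read from lists drawn up from general knowledge. For every list below, the shares of all genes tested are the same. At 42 h 20.9% passed and 31.7% had an unadjusted p under 0.05 by limma, and at 18 h 1.85% and 9.82%. Lists this short cannot be told apart from those shares, so their counts are a description. Among 5 expressed regulators of blood and progenitor cells, Zfp521 alone passed at 42 h. It met the level rule in vector cells only, so its fall is in part fixed by that rule. Zfp148, a GC-box binding factor, was 877 ± 191 in vector and 694 ± 109 in GATA1 cells (SD, n = 3; -0.32 ± 0.22, limma adjusted p 0.389), and Zfp217, Zfp281 and Zfp367 differed by 0.10, 0.07 and 0.02. Zfp423, the close relative of Zfp521, stayed near 5.4 in all groups and was not counted as expressed. Zfp318, also on the list, stayed just under the level rule. It read 71.9 ± 5.44 in vector and 57.2 ± 15.2 in GATA1 cells at 42 h (-0.28 ± 0.13, limma adjusted p 0.161).

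Of 8 genes of RNA binding, translation and ribosome assembly, 0 passed at either time by limma, 3 had an unadjusted p under 0.05 at 42 h and 0 at 18 h, and the nearest was Zfp346, which binds double-stranded RNA, with 348 ± 25.2 against 446 ± 59.4 (0.34 ± 0.11, limma adjusted p 0.0527, and 0.0419 with the replicate letter as a block). Zfp830 differed by 0.19 (adjusted p 0.0628) and Zfp106 by 0.21 (adjusted p 0.0734). Zfp36 (tristetraprolin), which binds AU-rich mRNA tails, differed by 0.10, Zfp598, the ubiquitin ligase of collided ribosomes, by 0.16, and Zfp622, Zfp593 and Zfp326 by -0.13, 0.07 and -0.06. Their standard errors were 0.065 to 0.22, so small changes would not have passed.

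Of 4 genes for imprint and retroelement silencing, 0 passed at either time by limma, and 0 had an unadjusted p under 0.05. Zfp445, which guards imprints, was 2604 ± 513 in vector and 2334 ± 315 in GATA1 cells at 42 h (-0.15 ± 0.17, limma adjusted p 0.633). Zfp809, which silences retroviruses through their primer binding site, differed by 0.02 ± 0.17, Zfp568, which silences a placental Igf2 transcript, by -0.10 ± 0.09, and Zfp932 by -0.01 ± 0.14. Of the 4 ubiquitin and mitosis genes, 0 passed by limma, and 1 had an unadjusted p under 0.05 at 42 h. Zfp746 (PARIS), a repressor removed by Parkin, was 405 ± 81.3 against 296 ± 25.3 (-0.42 ± 0.15, adjusted p 0.0834, and 0.0303 with the replicate letter as a block), and the spindle factor Zfp207 and the ubiquitin ligase Zfp91 differed by -0.08 and -0.03. Neither of the 2 activators passed by limma, and 1 had an unadjusted p under 0.05 at 42 h. Zfp335 differed by 0.21 ± 0.08 (adjusted p 0.0866) and Zfp410 by 0.06 ± 0.08 (adjusted p 0.740). Zfp410 is known for acting mainly through the Chd4 gene, and Chd4 was 1350.3 ± 293 in vector and 917 ± 202 in GATA1 cells at 42 h (-0.55 ± 0.22, adjusted p 0.113). Of the 21 role genes that did not pass, 5 passed in at least 1 of the alternative analyses. The share of all genes that did so is not given here.

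**Figure D5:**
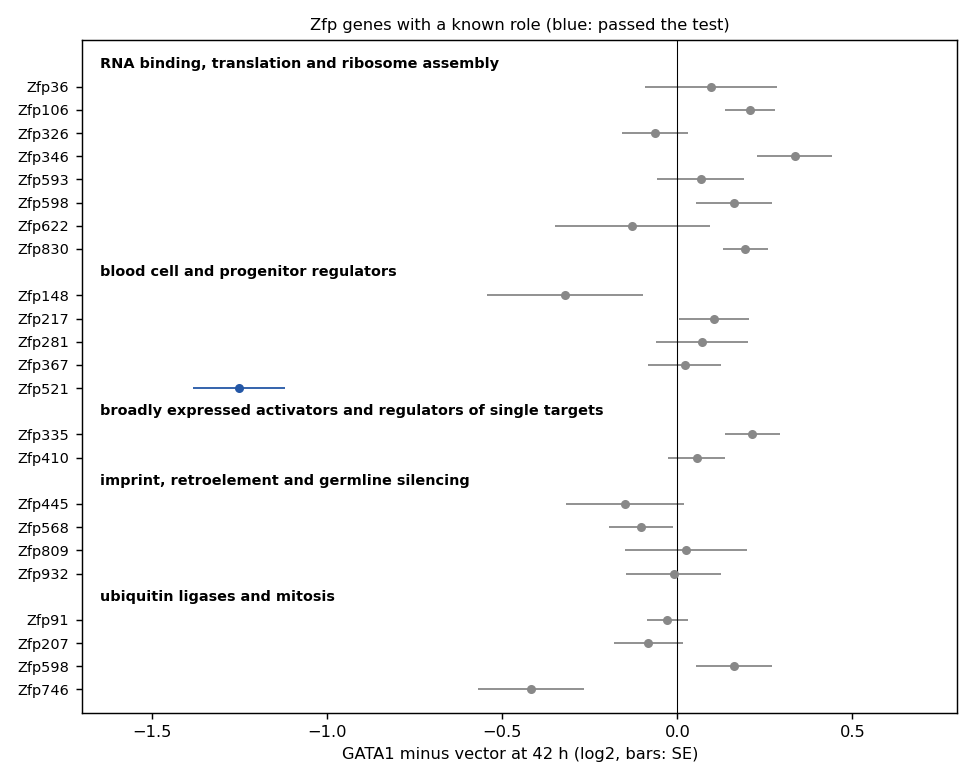
Difference between GATA1 and vector cells at 42 h on the log2 scale with standard errors for the expressed Zfp genes with a known role, by list, where Zfp598 stands in 2 lists. Zfp521 (blue) is the only one that passed the test without a replicate block, and the other points lie between -0.42 and 0.34.

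Most partners that KRAB zinc finger proteins recruit did not pass the test. Trim28 was 7202 ± 918 (SD, n = 3) in vector and 7222 ± 779 in GATA1 cells at 42 h (0.01 ± 0.15, limma adjusted p 0.997), and Setdb1 was 629.8 ± 14.5 against 673 ± 72.5 (0.09 ± 0.07, adjusted p 0.494). Of 13 genes of that silencing pathway tested, 0 were higher and 1 was lower, against the same 10.3% and 10.6% of all genes as above. The lower gene was Atf7ip, which protects SETDB1, from 595 ± 109.8 to 404 ± 62.1 (-0.54 ± 0.15, adjusted p 0.0289). The median of the 13 was -0.046, beside 0.0011 over all genes tested. In the NuRD complex, which Zfp521 binds, 3 of 12 genes were higher, against 10.3% of all genes tested, and 1 was lower, against 10.6%. Mbd2 rose from 1568 ± 73.2 to 2546 ± 244 (0.69 ± 0.12, adjusted p 0.00342), Mta3 from 546 ± 51.2 to 759 ± 77.6 (0.46 ± 0.10, adjusted p 0.00881) and Hdac1 from 2934 ± 201 to 3389 ± 26.1 (0.21 ± 0.05, adjusted p 0.0240), and Rbbp7 fell from 18273 ± 730.1 to 14074 ± 1173 (-0.38 ± 0.08, adjusted p 0.00621). An unadjusted p under 0.05 by limma at 42 h was found for 3 of the 13 and 7 of the 12, against 31.7% of all genes tested. At 18 h 0 of the 13 and 0 of the 12 passed by limma, and 0 of either list had an unadjusted p under 0.05.

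Zfp genes often lie in clusters of related copies. In the RefSeq gene order of GRCm38.p6, 36 of the 150 expressed genes formed 14 runs of direct neighbours, 2 of them of 5 genes, 2 of 3 and 10 of 2. In these runs 3 genes, 8.33%, passed at 42 h, against 15.3% of the 150 and 20.9% of all genes tested, and no run held more than 1 of them. Members of a run differed in sign in 7 of the 14. In the run Zfp760, Zfp229, Zfp820, Zfp995 and Zfp942 the differences at 42 h went from -0.28 to 0.69, and Zfp229 alone passed. In the run Zfp282, Zfp212, Zfp956, Zfp777 and Zfp746 they went from -0.62 to 0.19, and none passed in the limma fit. With the replicate letter as a block, Zfp760 of the former run (adjusted p 0.0323) and Zfp282 (adjusted p 0.0233) and Zfp746 (adjusted p 0.0303) of the latter passed as well. Near-identical copies can share probes. Of the 150 probe sets, 14 carry the suffixes that mark probes shared between transcripts (_s_at or _x_at), and none of those 14 was among the 23.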

How the data were processed

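Total RNA of 12 samples was measured on Affymetrix mouse arrays. The authors deposited 1 table of linear intensities for 45101 probe sets; GCRMA and MAS5 are named in the submitters' processing notes, without versions and without saying which gave these values. Genes were named from GEO's platform annotation, and 18193 genes had a probe set with a single symbol. The brightest probe set per gene, by mean over all arrays, was taken as log2(intensity + 16), and 10759 genes above the array median on at least 3 of 12 arrays entered a linear model of 4 groups without a block (limma 3.58.1, functions lmFit and eBayes, R 4.3.3). P-values were Benjamini-Hochberg adjusted over all genes tested, two-sided, with a threshold of 0.05. The procedure was tested on simulated data. Fold values refer to intensity + 16, so for dim probe sets they come out too small. The number of arrays, 3 a group, limits the precision.

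The members and gene lists were chosen with earlier results of these data known. Named genes were members passing at 18 h; the 12 largest rises and 12 largest falls passing at 42 h without overlap between arrays; the 5 largest in each direction in the other comparisons; the 6 brightest; the 3 on either side of the threshold of 100; role list members; members whose probe sets passed in opposite directions at 42 h, of which there were 0; and named partner genes. Genes named beyond this rule were chosen after their values were seen.

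The replicate letter was checked as a pairing: the correlation of deviations from the group means in samples of the same letter was 0.31 to 0.66 between vector and GATA1 at 18 h, 0.25 to 0.60 at 42 h and 0.36 to 0.54 between vector cells at the 2 times, and 0.05 to 0.61 between GATA1 cells at the 2 times. It was over 0.1 for every pair in the first 3 of these. Alternatives were other pseudocounts (1 and 64), filters, quantile normalization, the replicate block, array weights, an intensity trend, only the arrays compared, the second probe set, other level rules and leaving out arrays.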

Additional observations from a re-analysis of the deposited data

Results flagged for a closer look

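The effect of GATA1 differed between 18 h and 42 h for 2 Zfp genes by a test of the difference itself. For Zfp317 the difference of the effects was 0.80 on the log2 scale (limma adjusted p 0.0342): its GATA1 arrays at 42 h were above all other arrays. This call was lost in 9 of 21 alternatives, where the adjusted p ranged from 0.022 to 0.151 over all of them. For Zfp319 the difference was -0.31 (limma adjusted p 0.0450), with GATA1 cells at 93.7 ± 4.12 (SD, n = 3) at 42 h against 115 ± 1.83 at 18 h. This call was lost in 16 of 22 alternatives, with adjusted p from 0.0130 to 0.474, and its second probe set gave -0.30 (adjusted p 0.474) at intensities of 17.6 in vector and 12.6 in GATA1 cells at 42 h.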

How the results depend on the processing

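Of the 23 Zfp genes that passed at 42 h, Zfp275 and Zfp317 passed in every alternative run for them, and 22 kept their sign; Zfp560 had 0.048 in its second probe set. At 42 h 13 genes passed with no filter (8.67%, against 9.65% of all genes under that setting), 15 with only the arrays compared (10% against 15.8%), 14 without the 4 arrays lettered A (9.33% against 16.1%), 11 of 103 with a level rule of 200 (10.7% against 20.9%), 6 of 75 by the second probe set (8% against 12.6%) and 34 with the replicate block (22.7% against 28.4%), which took the call from Zfp763 alone. At 18 h 1 passed with a stricter filter (0.667% against 2.73%), 1 after quantile normalization (0.667% against 1.90%) and 2 with the replicate block (1.33% against 3.33%). Here and below the second share is that of all genes under the same setting. For the change in effect the counts were 0 with no filter (against 1.75%), 5 with the replicate block (3.33% against 7.86%) and 4 with array weights (2.67% against 6.84%). There were 1 with an intensity trend (0.667% against 4.26%) and 1 with a level rule of 200 (0.971% against 4.66%). By the second probe set there were 0 (against 1.97%), and without the arrays lettered A 0 (against 2.14%). In vector cells over time 1 passed with the replicate block (0.667% against 0.381%). In GATA1 cells over time 6 passed with no filter (4% against 6.28%) and 9 when the vector arrays were left out of the fit (6% against 12.3%). Array weights gave 28 (18.7% against 27.2%), the replicate block 22 (14.7% against 21.5%) and an intensity trend 8 (5.33% against 13.8%). The second probe set gave 1 (1.33% against 7.98%), and leaving out the arrays lettered A gave 8 (5.33% against 11.9%). The second probe set of Zfp84 gave a difference of 0.000124. The cause of these shifts was not tested. With 1 array left out the counts were 12 to 26 at 42 h, 0 to 1 at 18 h, 0 to 3 for the change in effect, 0 to 0 in vector cells and 5 to 16 in GATA1 cells over time. The change in effect needs all 4 groups, so a fit of only the arrays compared was not run. Between GATA1 cells at the 2 times, 2 of 3 letters correlated over 0.1. Probe sets near the array median carry little signal, so a missing call there is no evidence of no change.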

Other observations

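Of 97 Zfp genes that were tested but stayed under the level of 100 in every group, 5 passed at 42 h by limma, 5.15% against 20.9% of all genes tested: Zfp54, Zfp52 and Zfp513 lower, Zfp324 and Zfp524 higher. They are named because they passed. Of the 10759 genes tested, 7765 met the level rule, so these shares come from genes of unlike brightness. Zfp54 fell most, from 41.1 ± 8.03 (SD, n = 3) in vector to 9.39 ± 1.02 in GATA1 cells at 42 h (-1.16 ± 0.20, SE, log2, adjusted p 0.00252). At 18 h it was 51.4 ± 22.2 in vector and 24.4 ± 2.34 in GATA1 cells. In related zinc finger families, 6 of 34 Zbtb genes (17.6%) and 1 of 13 Zscan and Zkscan genes tested (7.69%) passed at 42 h, against the same 20.9%.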
